A study of Mus musculus with 6 samples.

Results

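The genes described here are DNA repair genes of the mouse cerebral cortex, among them Mgmt, taken by their symbols from a table of FPKM (fragments scaled to transcript length and to the mapped total of the library). The symbols were those of the Xrcc, Ercc, Fanc, Msh and Mlh families, of Rad17, Rad18, Rad21, Rad23 and the Rad50 series, of Parp1 to Parp3, and 13 single names such as Mgmt, Ogg1 and Atm. They gave 56 of the 13582 rows. The tissue was right cerebral cortex, taken at 10 weeks of age from C57BL/6 mice injected once into the peritoneum 2 weeks earlier. The injection held resveratrol, a plant polyphenol, at 10 mg/kg in 3 mice and vehicle in 3 mice, although a dose of 10 mg/kg is also entered for vehicle. The comparison concerns resveratrol preconditioning, which is studied for the delayed ischemic tolerance that follows it, and the labels name no ischemic injury in any of these mice.

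Cells repair DNA by several routes. Direct reversal removes an added group from a base without cutting the strand, and base excision repair cuts out small base lesions such as oxidised guanine. Nucleotide excision repair removes bulky lesions, mismatch repair corrects copying errors, and breaks through both strands are mended by recombination with an intact copy or by joining the ends. The Fanconi anaemia proteins undo crosslinks between strands. Neurons do not divide, so base excision, nucleotide excision and end joining are held to carry most of the work in adult cortex, while recombination genes are best known from dividing cells.

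By role, the symbols held 1 gene of direct reversal, 12 of base excision and single-strand break repair, 9 of nucleotide excision, 5 of mismatch repair, 8 of homologous recombination, 4 of end joining, 8 of the Fanconi anaemia pathway and 5 of damage signalling and lesion bypass. Another 4 carry such names without a settled place in these routes. These are Rad21, a subunit of the cohesin ring, Rad54l2 and Ercc6l2, relatives of repair helicases, and Xrcc6bp1. Xrcc6bp1 is an older name of Atp23, which in yeast encodes a protease that processes a subunit of the mitochondrial ATP synthase. All 56 genes had a mean of at least 0.5 FPKM over the 6 libraries and entered the test, and 0 of them had a value at the lowest figure listed, 0.01 FPKM.

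The libraries differed in ways that treatment does not describe. The first principal component of all 13574 genes tested, which held 43.2% of the variance, placed vehicle 1 and 2 (-16.4 and -25.8) apart from the other 4 (1.41 to 18.8). Spearman correlations of each gene's deviation from its mean with transcript length were 0.31 and 0.48 in vehicle 1 and 2. In the other 4 libraries they lay between -0.50 and 0.0013. With GC content they ran from -0.46 in resveratrol 1 to 0.57 in resveratrol 3. Markers of neighbouring tissue also varied. The 6 choroid plexus markers summed to between 48.4 and 455 FPKM in resveratrol libraries, against 16.3 to 113 in vehicle libraries, with a higher resveratrol mean for all 6. The 5 ependymal markers summed to 8.12 to 9.34 FPKM in resveratrol and 12.2 to 13.3 FPKM in vehicle, and the 6 striatal markers to 146 to 311 FPKM in resveratrol and 168 to 433 FPKM in vehicle. The 4 oligodendrocyte markers summed to 1016 to 1211 FPKM in resveratrol and 1223 to 1293 FPKM in vehicle. Markers of cortical excitatory neurons (among them Slc17a7, Tbr1 and Neurod6) were present and summed to 291 to 308 FPKM in resveratrol and 258 to 326 FPKM in vehicle. None of the marker genes listed was at 0.01 FPKM. The part of these differences in the results below was not tested, although a fit corrected for length and GC content was run as an alternative. In tissue RNA, fewer cells of a type and less RNA per cell cannot be told apart.

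The sequences upstream of Mgmt and Xrcc6bp1 are shown because these were the 2 repair genes with the smallest p. They are the 250 bases before the start of each gene in the RefSeq table for GRCm38.p6, written 5′ to 3′ along the gene, with each CG dinucleotide in capitals. The table matched 44 of the 56 genes.
Mgmt (chr7:136894336-136894585, plus strand): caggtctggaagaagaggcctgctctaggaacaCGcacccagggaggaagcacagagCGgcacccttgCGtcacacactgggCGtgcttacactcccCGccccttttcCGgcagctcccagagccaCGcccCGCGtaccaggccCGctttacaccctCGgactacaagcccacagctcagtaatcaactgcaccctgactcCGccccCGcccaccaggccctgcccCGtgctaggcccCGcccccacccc
Xrcc6bp1 (chr10:126901372-126901621, minus strand): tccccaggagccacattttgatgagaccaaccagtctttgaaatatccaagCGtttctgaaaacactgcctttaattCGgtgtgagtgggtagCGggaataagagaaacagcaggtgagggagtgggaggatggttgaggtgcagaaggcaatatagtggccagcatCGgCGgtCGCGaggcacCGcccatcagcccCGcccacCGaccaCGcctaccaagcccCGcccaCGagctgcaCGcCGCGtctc
The Mgmt sequence held 15 CG dinucleotides and that of Xrcc6bp1 held 16. Over 32851 windows of the same length the median was 6, and 27.3% held at least 15. Over the first listed window of each matched repair gene the median was 18, so both genes lay below it. GGGCGG, the GC box bound by SP1 factors, was searched on both strands with overlaps counted. It occurred 4 times upstream of Mgmt and 3 times upstream of Xrcc6bp1, and 32.7% of all windows held at least 1. Of the 44 matched repair genes, 27 held at least 1 in their first listed window. These letters are a description, and methylation or binding was not measured in these samples.

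Repair transcripts were mostly of low or middle abundance. The median repair gene had a mean of 5.46 FPKM over the 6 libraries, against 10.2 FPKM for the median of all genes tested. A mean of 20 FPKM or more was found for 6 genes. Rad23b, which hands damaged DNA on to the excision machinery and also escorts proteins to the proteasome, was the most abundant at 65.4 FPKM. It was followed by Rad21 (37.9), the gap-filling polymerase Polb (29.6), the strand-break sensor Parp1 (25.9) and the abasic-site nuclease Apex1 (25.5). The levels of Parp1 and Apex1 differed by less than the spread between libraries. A mean below 1 FPKM was found for 6 genes. These were the recombination genes Rad51c and Rad51ap1, the glycosylases Ung and Neil2, Fancd2 and Mgmt, which ranked number 52 of 56 at 0.842 FPKM.

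**Figure D1:**
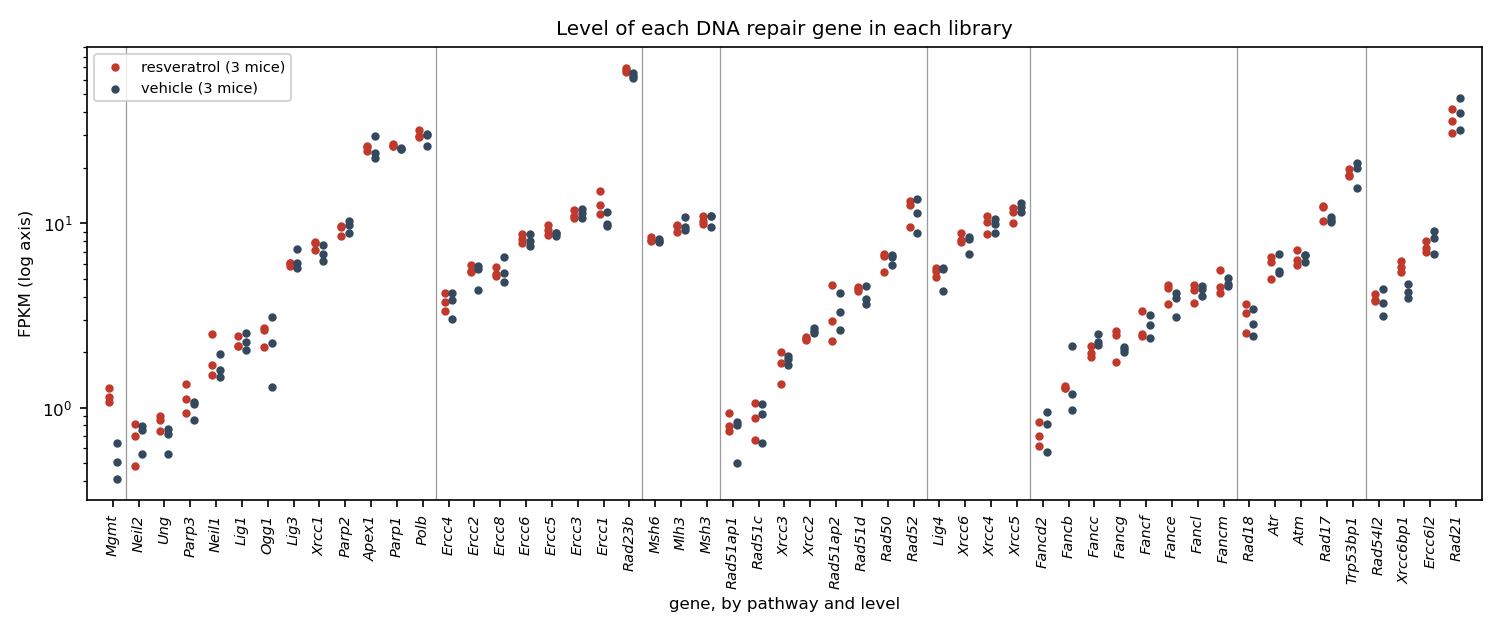
FPKM on a log axis of 53 of the repair genes in each library, with 3 resveratrol mice beside 3 vehicle mice and grey lines between pathways. Mgmt stands alone at the left with its resveratrol points above its vehicle points, while for most other genes the points of both groups lie together.

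In the comparison of resveratrol with vehicle, 0 of the 56 repair genes passed the limma test (a linear model with spread shared across genes) at an adjusted p under 0.05, where 0.00737% of all genes tested passed. The smallest adjusted p of any repair gene was 0.987. At an unadjusted p under 0.05, 3 repair genes were higher in resveratrol (5.36%), among them Mgmt and Xrcc6bp1, against 1.64% of all genes tested. On the lower side there were 0, against 0.788%, and 2.42% of all genes tested passed in either direction. A p under 0.05 in the authors' deposited table was found for 3 repair genes (5.36%), Mgmt and Xrcc6bp1 among them. The share of all genes was slightly larger, 5.98%. A deposited q under 0.05 was found for 0 repair genes, against 0.744% of all genes. The smallest deposited q of any repair gene was 0.578.

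Mgmt encodes the methyltransferase that takes alkyl groups off guanine onto itself and is used up in doing so. The gene lies on chromosome 7 from 136894614 to 137130266 (GRCm38, GENCODE M21). It had 1.15, 1.07 and 1.28 FPKM in resveratrol 1, 2 and 3, against 0.407, 0.639 and 0.509 FPKM in vehicle 1, 2 and 3. Every resveratrol library lay above every vehicle library, and the lowest resveratrol value was 1.67 times the highest vehicle value. The mean was 1.16 ± 0.106 FPKM in resveratrol and 0.519 ± 0.116 FPKM in vehicle (SD, n = 3 each), a ratio of 2.25. On the scale of log2(FPKM + 0.5) the difference was 0.71 ± 0.17 (SE), with a 95% interval of 0.33 to 1.09, and the limma adjusted p was 0.987.

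That difference in Mgmt was the largest of the 56 repair genes. Counting Mgmt, 28 of all genes tested differed upward by at least as much. By unadjusted limma p (0.00193) the gene ranked number 12 of all genes tested. The exact two-sided permutation test gave p = 0.1, which is the smallest that 3 against 3 can give. The authors' deposited table has a log2 fold change of 1.17 for Mgmt, a p of 0.0215 and a q of 0.578. Mgmt was singled out with earlier results of these data known, so its values are a description.

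The size of the Mgmt difference depended on the scale, since the gene is near the low end of the table. With 0.1 in place of 0.5 added to each value the log2 fold change was 1.04, and with 1 it was 0.51. Of 1145 genes with a mean within 1.5 times that of Mgmt, 7 had a log2 fold change at least as large, Mgmt among them. Counting both directions, 15 had one of at least that size. In 4.02% of the 1145 genes the groups were apart with resveratrol on top. Leaving out any single library gave between 0.63 and 0.80. With vehicle 1 and 2 both left out it was 0.72, with an adjusted p of 0.999. When libraries were weighted by their estimated quality the adjusted limma p was 0.0172. In that fit 1390 genes passed, and vehicle 1 and resveratrol 2 had weights of 4.02 and 3.55, against 0.266 to 0.786 for the other 4 libraries.

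**Figure D2:**
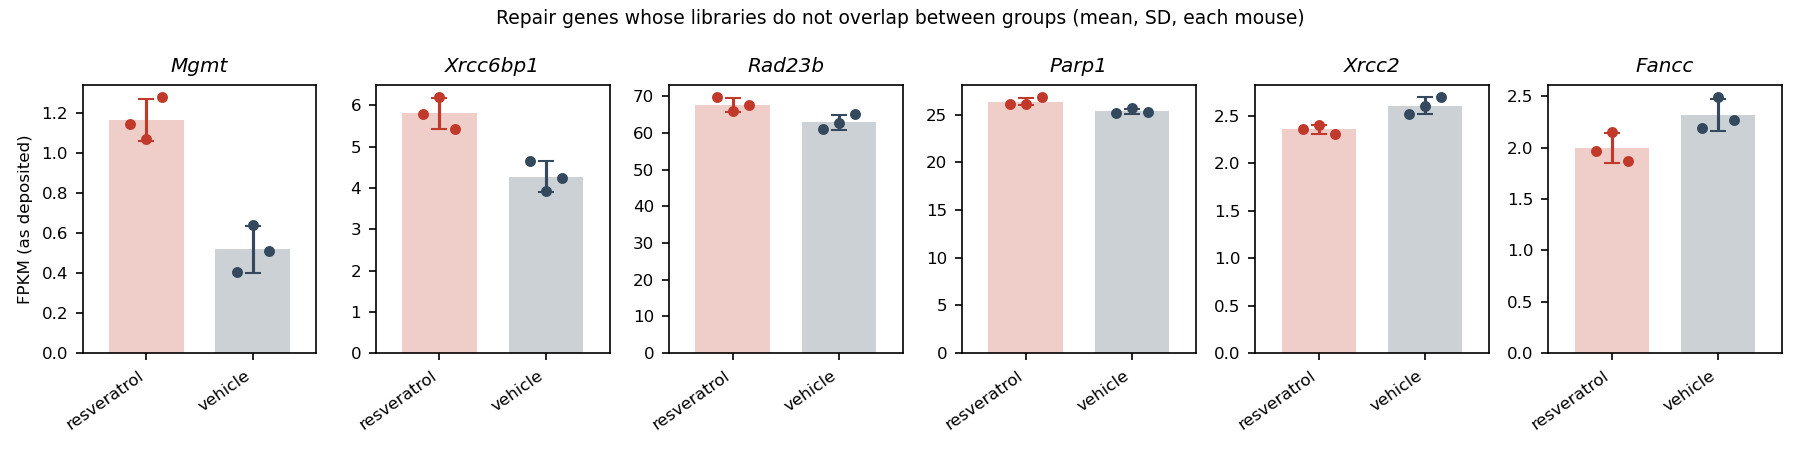
FPKM in each mouse (points) with the mean (bar) and SD (whisker) of 3 resveratrol and 3 vehicle libraries, for 6 repair genes whose groups do not overlap. As a ratio of the lowest resveratrol to the highest vehicle value Mgmt shows the widest gap of the genes higher in resveratrol, 1.67, and the gaps of Parp1 and Rad23b are small beside their levels.

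Direct reversal has other enzymes, the dioxygenases Alkbh2 and Alkbh3, which oxidise methyl groups away. Alkbh2 had 2.22, 2.97 and 2.18 FPKM in resveratrol 1, 2 and 3, against 2.18, 2.17 and 2.14 FPKM in vehicle 1, 2 and 3. The values other than resveratrol 2 were nearly equal. The difference was 0.14 ± 0.15 (SE) and 0.019 without resveratrol 2. Alkbh3 differed by 0.10 ± 0.13, with overlapping groups. Neither passed the test.

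The 12 genes of base excision and single-strand break repair had a median log2 fold change of 0.062, with 8 above 0 and 4 below, and 0 at an unadjusted p under 0.05. Parp1, which marks strand breaks with chains of ADP-ribose, had 26.1, 26.1 and 26.8 FPKM in resveratrol 1, 2 and 3, against 25.2, 25.7 and 25.2 FPKM in vehicle 1, 2 and 3. These groups did not overlap although their means differed by a ratio of only 1.04 (log2 fold change 0.054, 95% interval -0.15 to 0.26). Polb had 30.4 ± 1.45 FPKM in resveratrol and 28.9 ± 2.37 FPKM in vehicle (SD, n = 3 each). The glycosylase Ogg1, which removes oxidised guanine, had the largest positive difference of the group, 0.20 ± 0.23 (SE). Its vehicle values of 1.30, 2.23 and 3.09 FPKM in vehicle 1, 2 and 3 enclosed the resveratrol values of 2.62, 2.14 and 2.71 FPKM. Lig3, the ligase partner of Xrcc1, had the largest negative one, -0.064 ± 0.13.

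In nucleotide excision repair 7 of 9 genes were above 0 and 2 below, with a median of 0.066. Ercc1, the partner of the nuclease Ercc4 that cuts on the 5′ side of a lesion, had 12.6, 11.2 and 14.9 FPKM in resveratrol 1, 2 and 3, against 9.61, 9.92 and 11.5 FPKM in vehicle 1, 2 and 3. The resveratrol libraries were the higher ones except that resveratrol 2 lay below vehicle 3. The log2 fold change was 0.30 ± 0.13 (SE), with an unadjusted limma p of 0.0520 (adjusted p = 0.987). It was 0.19 without resveratrol 3, 0.20 after correction for transcript length and GC content, and 0.14 without vehicle 1 and 2. The exons of Ercc1 overlap those of Cd3eap on the other strand, and whether the authors counted by strand is not given in the sources used here, so this value is uncertain.

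Rad23b had 69.8, 65.9 and 67.7 FPKM in resveratrol 1, 2 and 3, against 61.0, 62.7 and 65.1 FPKM in vehicle 1, 2 and 3. The groups did not overlap, at a ratio of 1.08 and a log2 fold change of 0.11 (95% interval -0.11 to 0.32). Ercc8, a factor of repair coupled to transcription, had the largest negative difference of the group at -0.024 ± 0.14 (SE). The genes for the lesion sensor Xpc and the core factor Ercc3 lay on opposite sides. Xpc had 6.08 ± 0.481 FPKM in resveratrol and 5.18 ± 0.0522 FPKM in vehicle (SD, n = 3 each) without overlap of the groups, and Ercc3 had 11.2 ± 0.577 and 11.3 ± 0.637 FPKM.

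In mismatch repair, Msh6, a subunit of the main mismatch sensor, had 8.16 ± 0.190 FPKM in resveratrol and 8.04 ± 0.184 FPKM in vehicle (SD, n = 3 each). Msh3, the subunit that takes its place in the sensor of larger loops, had 10.4 ± 0.495 FPKM in resveratrol and 10.5 ± 0.785 FPKM in vehicle. Mlh3, which acts after a mismatch is found, had 9.44 ± 0.461 FPKM in resveratrol and 9.83 ± 0.845 FPKM in vehicle. The log2 fold changes of these 3 genes lay between -0.054 and 0.021, and their groups overlapped.

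**Figure D3:**
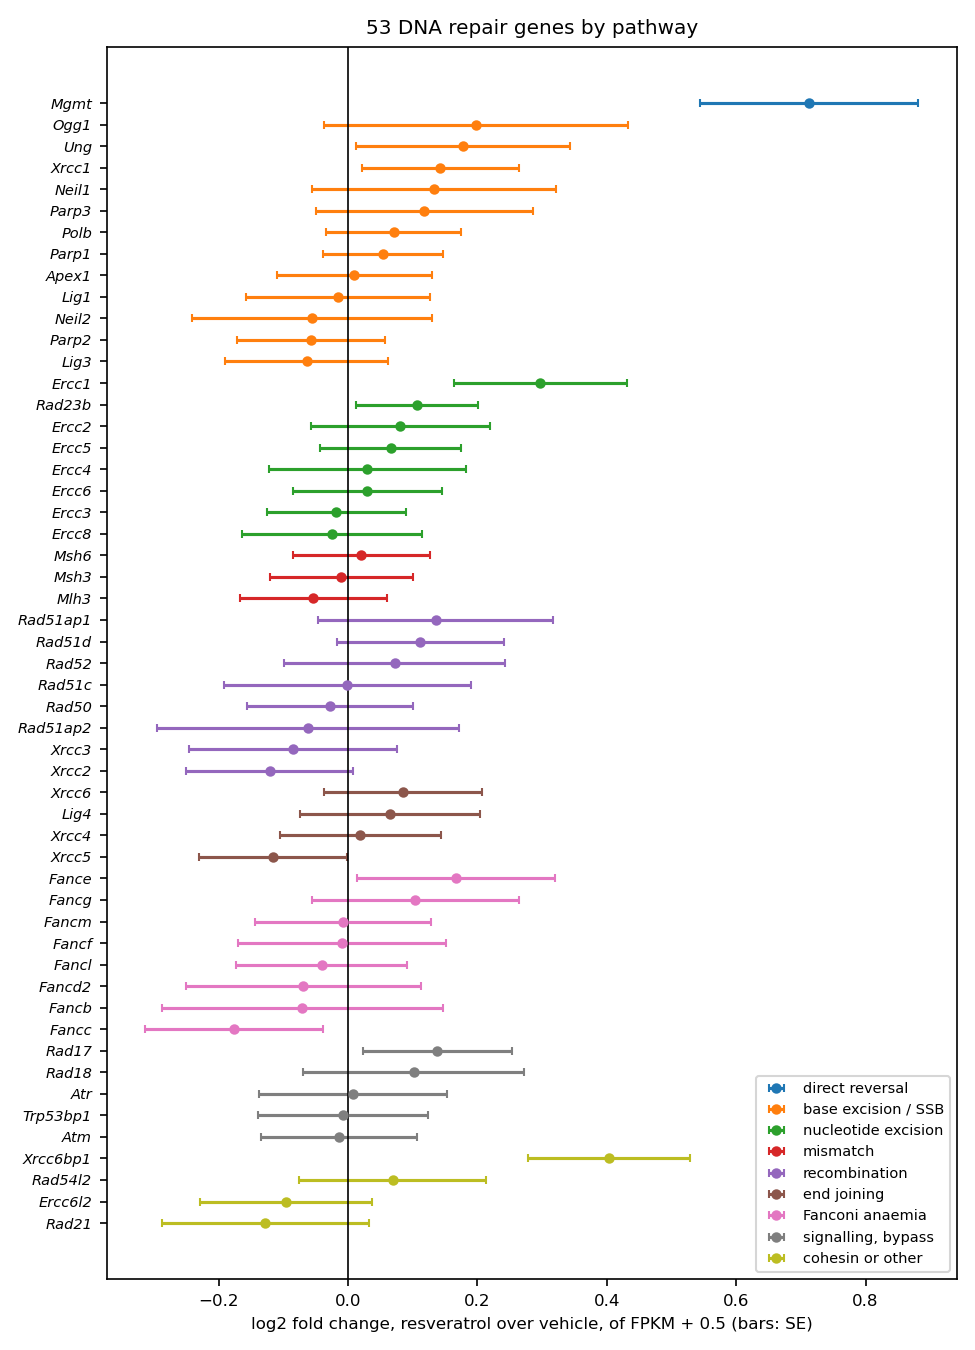
Log2 fold change of resveratrol over vehicle for 53 of the repair genes on the scale of log2(FPKM + 0.5), with bars for the SE, grouped by pathway. Mgmt, Xrcc6bp1 and Ercc1 are the 3 plotted genes farther than 0.25 from 0, all on the positive side.

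Of the 8 recombination genes 3 were above 0 and 5 below, with a median of -0.015. Xrcc2, which helps to build the filament that searches for an intact copy, had 2.37, 2.40 and 2.31 FPKM in resveratrol 1, 2 and 3, against 2.52, 2.61 and 2.70 FPKM in vehicle 1, 2 and 3. All 3 resveratrol libraries were lower than all 3 vehicle libraries, by a log2 fold change of -0.12 ± 0.13 (SE, 95% interval -0.41 to 0.17). Rad52 was the most abundant of the group, with 11.8 ± 1.91 FPKM in resveratrol and 11.2 ± 2.30 FPKM in vehicle (SD, n = 3 each). Rad51ap1, which promotes strand pairing in recombination, had the largest positive difference, 0.14 ± 0.18 (SE), at a level under 1 FPKM.

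In end joining the 4 genes lay between -0.12 and 0.085. Xrcc5 and Xrcc6 encode the 2 subunits of Ku, the ring that holds broken ends, and their differences had opposite signs. Xrcc5 had 11.2 ± 1.04 FPKM in resveratrol and 12.1 ± 0.697 FPKM in vehicle, and Xrcc6 had 8.28 ± 0.492 and 7.80 ± 0.832 FPKM (SD, n = 3 each). Lig4 and its partner Xrcc4 differed by 0.065 and 0.019. Poll, a polymerase that fills gaps at joined ends, was outside these symbols and had 3.31, 3.56 and 3.74 FPKM in resveratrol 1, 2 and 3, against 2.84, 2.90 and 2.81 FPKM in vehicle 1, 2 and 3. Its groups did not overlap (0.27 ± 0.13 SE, limma adjusted p = 0.987). The kinase gene Prkdc, whose protein Ku recruits, differed by -0.18 ± 0.15.

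Of the 8 Fanconi anaemia genes 2 were above 0 and 6 below. Fancc, a subunit of the core complex, had 1.97, 2.15 and 1.87 FPKM in resveratrol 1, 2 and 3, against 2.19, 2.49 and 2.27 FPKM in vehicle 1, 2 and 3. All 3 resveratrol libraries were lower, with a gap between groups smaller than the spread within either. Exons of Fancc overlap 2 genes on the other strand, so its value carries the same uncertainty as that of Ercc1, as do those of other repair genes whose exons overlap a gene on the other strand, among them Fancd2, Fance, Fancm, Ogg1, Polb, Lig3, Apex1, Msh3, Msh6, Xrcc4, Xrcc6, Atr, Trp53bp1 and Rad17. This was the most negative log2 fold change of the 56 genes, -0.18 ± 0.14 (SE, 95% interval -0.48 to 0.13). Fance, also of the core complex, had the largest positive difference, 0.17 ± 0.15. Fancm, the DNA translocase that anchors the complex, had 4.76 ± 0.720 FPKM in resveratrol and 4.76 ± 0.236 FPKM in vehicle (SD, n = 3 each). Fancd2, which the core complex marks with ubiquitin, had 0.716 ± 0.110 and 0.781 ± 0.190 FPKM.

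In damage signalling, the kinase genes Atm and Atr differed by -0.014 ± 0.12 and 0.0071 ± 0.15 (SE). Trp53bp1, which steers breaks toward end joining, had 18.6 ± 0.940 FPKM in resveratrol and 18.9 ± 3.03 FPKM in vehicle (SD, n = 3 each). It was 0.26 higher on the log2 scale against vehicle 3 alone, which had 15.5 FPKM, below all resveratrol libraries. Rad17, the clamp loader of the checkpoint, had 12.3, 12.4 and 10.2 FPKM in resveratrol 1, 2 and 3, against 10.2, 10.5 and 10.8 FPKM in vehicle 1, 2 and 3, so that resveratrol 3 lay among the vehicle libraries. Rad18, the ubiquitin ligase that starts lesion bypass, had 3.15 ± 0.579 FPKM in resveratrol and 2.90 ± 0.501 FPKM in vehicle.

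Xrcc6bp1 lies on chromosome 10 from 126868427 to 126901355. It had 5.80, 6.20 and 5.43 FPKM in resveratrol 1, 2 and 3, against 4.66, 3.91 and 4.24 FPKM in vehicle 1, 2 and 3. The groups did not overlap, and the means were 5.81 ± 0.382 and 4.27 ± 0.375 FPKM (SD, n = 3 each), a ratio of 1.36. The log2 fold change was 0.40 ± 0.12 (SE), with a 95% interval of 0.12 to 0.68 and a limma adjusted p of 0.987 (0.0342 with sample weights). Of the other genes without a settled place, Rad21 had 41.5, 35.9 and 30.8 FPKM in resveratrol 1, 2 and 3, against 39.5, 47.6 and 31.9 FPKM in vehicle 1, 2 and 3. The resveratrol 3 and vehicle 3 libraries were lowest for Rad21, and the groups overlapped.

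Taking the 56 genes as a list, 32 were above 0 and 24 below (57.1% above, against 56.1% of all genes tested). The median log2 fold change was 0.025, against 0.022 for all genes tested, and 62.5% lay within 0.1 of 0, against 50.6%. Differences beyond 0.25 were found in 4 genes (7.14%), against 12.2%. The resveratrol libraries lay wholly above the vehicle libraries in 5 genes (8.93%), among them Mgmt, Xrcc6bp1, Rad23b and Parp1, against 4.28% of all genes tested. They lay wholly below in Xrcc2 and Fancc (3.57%), against 2.0%. The 95% interval of the difference lay within 0.5 of 0 for 45 of the 56 genes. For the remaining 11 the data do not bound the difference that closely.

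**Figure D4:**
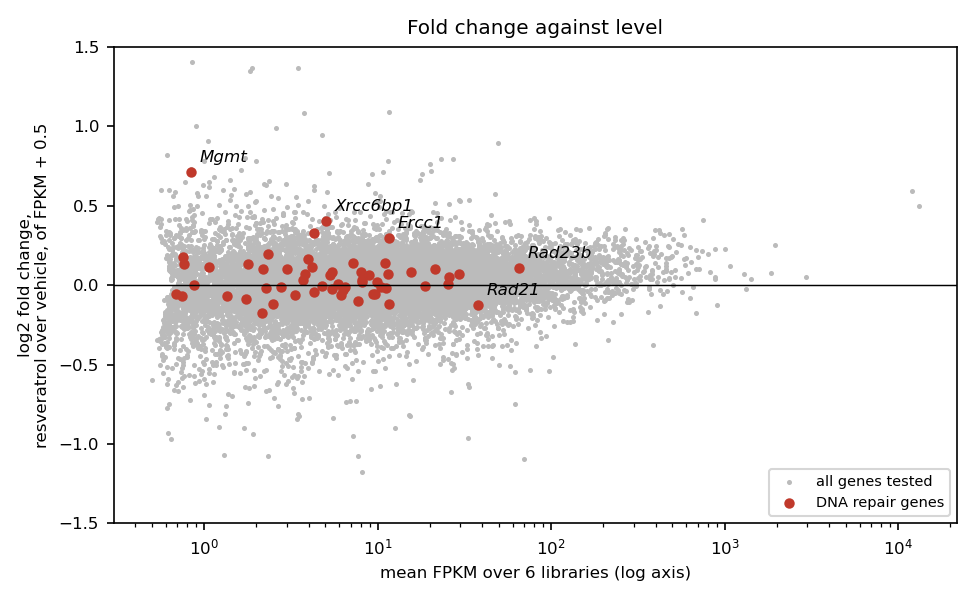
Log2 fold change of resveratrol over vehicle against mean FPKM (log axis), with all genes tested in grey and the repair genes in red. The repair genes lie inside the grey cloud at their level, with Mgmt near its upper edge at 0.71, and 8 other genes beyond 1.5 are outside the plotted range.

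Within groups the repair genes varied somewhat less than the table as a whole. Their median coefficient of variation was 8.07% over the 3 resveratrol libraries and 11.0% over the 3 vehicle libraries, against 9.98% and 12.8% for all genes tested. No library was the highest or the lowest for most of the repair genes. Resveratrol 1 held the highest value of 17 genes and the lowest of 3. Vehicle 1 and vehicle 2 each held the lowest value of 15 genes and the highest of 8. The median deviation from the gene mean was 0.072, 0.013 and -0.024 in resveratrol 1, 2 and 3, and -0.014, -0.028 and 0.0095 in vehicle 1, 2 and 3, on the log2 scale.

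**Figure D5:**
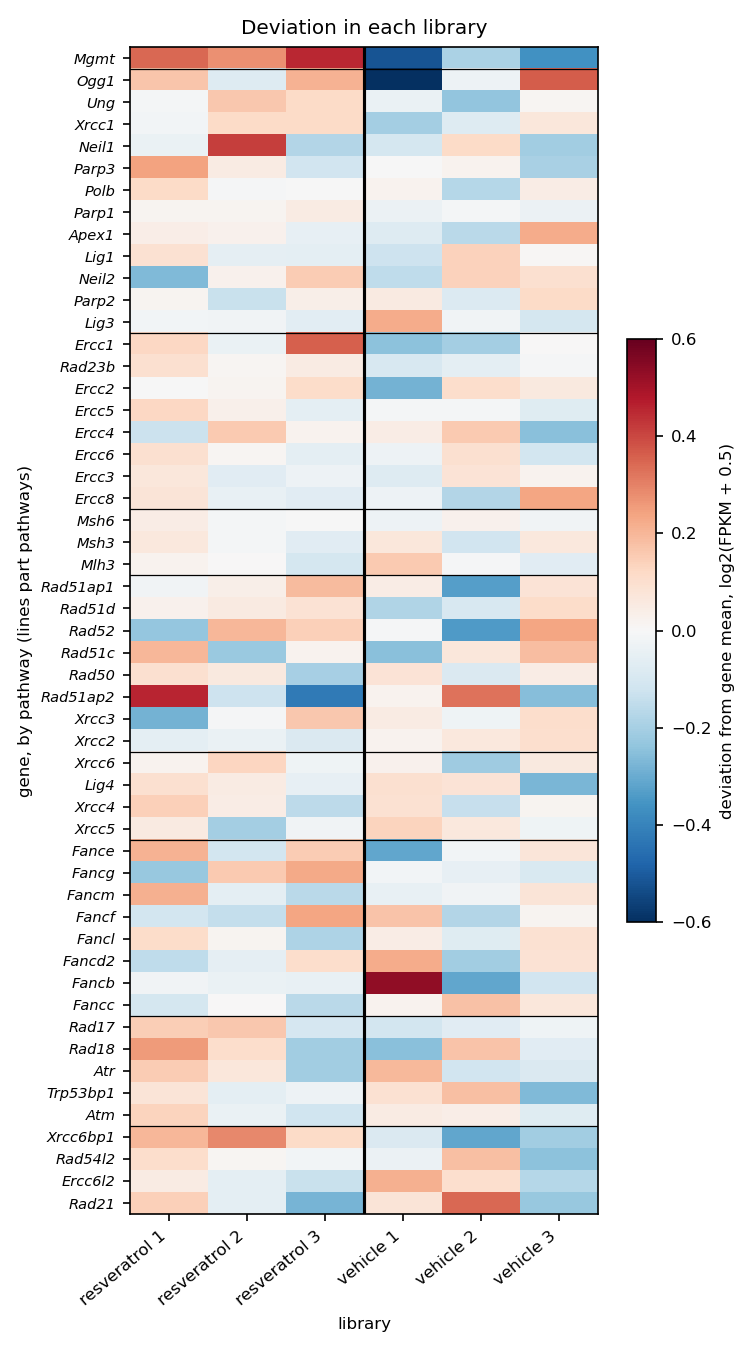
Deviation of 53 of the repair genes (rows, by pathway) from its own mean in each library (columns), on the scale of log2(FPKM + 0.5), with colours capped at 0.6. The Mgmt row splits by group, while most other rows mix higher and lower libraries in both groups.

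Other genes of the same routes, of damage signalling, of the p53 response and of proliferation were read from lists of 152 further symbols, of which 129 were listed. In limma without sample weights 0 of them passed. At an unadjusted p under 0.05 there were 0 higher, against 1.64% of all genes tested, and 1 lower (0.775%, against 0.788%). Their median log2 fold change was 0.0022. Of 97 listed genes of the repair and signalling lists, 45 were above 0 and 52 below, with 6 wholly above vehicle (6.19%, against 4.28% of all genes tested) and 3 wholly below (3.09%, against 2.0%). The smallest unadjusted p values on the repair lists were those of Poll, of the glycosylase gene Nthl1 (0.46 ± 0.23 SE) and of Rfc4, a subunit of the clamp loader (-0.32 ± 0.17). With sample weights, where 1390 genes passed, the adjusted limma p was 0.0250 for Rfc4 and 0.0473 for Prkdc. Other genes near the top of their lists were Palb2 (-0.33) and Swi5 (0.22) of recombination, the replication clamp Pcna (0.19), Cetn2 (-0.13) of nucleotide excision, Ube2a (-0.13) and Polk (-0.14) of bypass, Usp1 (0.11) and Ube2t (-0.15) of the Fanconi pathway, and Rnf8 (0.15) and Hus1 (-0.14) of signalling.

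Transcripts of the p53 response did not pass in the unweighted fit either. Trp53 had 4.06 ± 0.619 FPKM in resveratrol and 3.80 ± 1.13 FPKM in vehicle (SD, n = 3 each). Its target Cdkn1a, an inhibitor of the cell cycle, had 3.32 ± 0.211 and 3.06 ± 0.584 FPKM, and Mdm2, which turns p53 over, had 18.2 ± 1.07 and 18.1 ± 0.965 FPKM. Of 22 listed targets 15 were above 0, a larger share than the 56.1% of all genes tested, with 0 at an unadjusted p under 0.05. Their median was 0.094, against 0.022 for all genes tested. Their log2 fold changes ran from -0.44 to 0.34, so the largest in size was downward. The resveratrol libraries lay wholly above in 2 of the 22 targets (9.09%, against 4.28% of all genes tested) and wholly below in 0, against 2.0%. Bax, an activator of cell death, had 20.5, 20.5 and 23.1 FPKM in resveratrol 1, 2 and 3, against 16.8, 16.8 and 20.2 FPKM in vehicle 1, 2 and 3, without overlap (0.25 ± 0.12 SE, limma adjusted p = 0.987). Phlda3 differed by 0.31 ± 0.15, with overlapping groups. With sample weights, where 1390 genes passed, the adjusted limma p was 0.0355 for Bax and 0.0270 for Phlda3. Cdkn1a and Mdm2 did not pass under any alternative. Without vehicle 1 and 2 the difference was 0.074 for Bax and 0.011 for Phlda3.

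Proliferation genes were scarce, as 12 of 20 were listed and their median mean was 1.24 FPKM. Top2a, the topoisomerase of dividing cells, had 0.563, 0.665 and 0.557 FPKM in resveratrol 1, 2 and 3, against 1.08, 1.06 and 0.827 FPKM in vehicle 1, 2 and 3. The resveratrol libraries were wholly lower (-0.44 ± 0.17 SE, limma adjusted p = 0.987). Mki67, another marker of dividing cells, had 0.505, 0.584 and 0.373 FPKM in resveratrol 1, 2 and 3, against 1.11, 0.719 and 0.401 FPKM in vehicle 1, 2 and 3, and the groups overlapped. Ccna2, a cyclin, differed by -0.52 ± 0.26, and between -0.72 and -0.26 with 1 library left out. With sample weights, where 1390 genes passed, the adjusted limma p was 0.0386 for Top2a and 0.0395 for Ccna2. Of the 12 listed genes 6 were above 0 and 6 below, with a median log2 fold change of 0.0064. Mcm3, a subunit of the replication helicase named here after its values were seen, was wholly higher in resveratrol, with 1.15 ± 0.236 FPKM against 0.846 ± 0.138 FPKM in vehicle (SD, n = 3 each), a log2 fold change of 0.29 ± 0.18 (SE).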

How the data were processed

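Libraries were made from ribosomal RNA-depleted total RNA of 6 right cortices with a stranded kit, per the labels' protocols. Groups and replicate numbers came from the sample titles. The submitters' processing notes name STAR, Cufflinks, Cuffdiff and GRCm38, without roles or versions. Which annotation was used, and whether strand was used, is not given in the sources used here. Deposited by the authors were FPKM per library, and, per the file headers, a log2 fold change, p-value and q-value per gene. The deposited loci overlapped the GRCm38 gene of that name in 15.1% of matched rows, so positions were taken from GENCODE M21, which matched all 56 repair genes. At most 4.56% of a repair gene's 50-base words occurred in other genes, and the exons of 23 of them overlap a gene on the other strand.

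The test was limma 3.58.1 in R 4.3.3, with a trend of variance on level, applied to log2(FPKM + 0.5). It took the 13574 genes averaging 0.5 FPKM or more and without either of 2 values that read as failed. P-values are two-sided and Benjamini-Hochberg adjusted over all of them. The labels do not say more of the 3 mice per group than their number, so p-values measure the spread between these libraries. Depth is unknown: at the best step only 28.7% to 31.4% of low values, scaled by transcript length, lay within 0.1 of a whole number of reads. The test was checked on simulated data with independent noise per gene and added differences larger than that of Mgmt. The check does not cover smaller differences or variation that genes share within a library. The repair genes and lists were chosen with earlier results of these data known. Named were Mgmt, repair genes at an unadjusted p under 0.05 or without overlap, the most abundant and the extreme genes of each route, and 2 genes per other list, besides Trp53, Cdkn1a, Mdm2, Mki67 and Top2a. Some genes that the rule picks are not reported here, although counts and medians include them. Genes named beyond that rule were chosen for their role after their values were seen. Alternatives were other pseudocounts, filters and scalings, robust empirical Bayes, sample weights, a replicate block, a length and GC correction, and libraries left out.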

Additional observations from a re-analysis of the deposited data

How the results depend on the processing

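Log2 fold changes of Mgmt, Xrcc6bp1 and Rad23b stayed positive under every alternative that gave them a value (the filter at a mean of 2 FPKM removes Mgmt). Keeping the sign was not particular to these genes. Ercc1, Parp1, Rad17, Fance, Poll, Xpc and Bax also stayed positive, and Xrcc2, Fancc and Xrcc5 stayed negative. The median of the repair genes stayed between 0.0059 and 0.055. With sample weights 1390 of the 13574 genes tested passed the threshold, 903 higher and 487 lower. Of the 56 repair genes 3 passed, a smaller share. At an unadjusted p under 0.05, 11 repair genes were higher and 4 lower. Weights by REML, chosen after seeing the data, stopped before converging. They gave 4927 of the 13574 genes, 2889 higher and 2038 lower, and 18 of the 56 repair genes, again a smaller share. Unadjusted, 16 repair genes were higher and 10 lower. For unadjusted counts under the alternatives no share of all genes is given, so none is read as a result about the repair genes. With vehicle 1 and 2 left out 3 genes were higher, and the repair genes without overlap, now against 1 library, were 17 higher (30.4%, against 27.8% of all genes tested) and 8 lower (14.3%, against 19.3%). Leaving out 1 library gave 1 to 3 genes higher and 0 to 5 lower in all, 0 repair genes past the threshold, 2 to 4 higher and 0 lower unadjusted, and 6 to 11 higher and 2 to 5 lower without overlap. The most, 11 (19.6%, against 21.4% of all genes tested) and 5 (8.93%, against 15.8%), came without vehicle 3, and over the other 5 settings the shares of all genes were 6.19% to 10.9% higher and 3.08% to 6.23% lower. Fewer libraries make an overlap less likely by construction.

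Signs of some differences turned, and not only of small ones. Before any alternative Mki67 was at -0.30, Palb2 at -0.33 and Ogg1 at 0.20. With vehicle 1 and 2 left out, 12 of 47 named genes kept their sign and were smaller by over 1.5 times, and those that turned were Mki67 0.13, Atm 0.065, Lig3 0.074, Mlh3 0.043, Ogg1 -0.27, Pcna -0.042, Polb -0.0098, Prkdc 0.12, Rad21 0.16, Rad51ap1 -0.014, Rad52 -0.20, Swi5 -0.11, Trp53bp1 0.26, Usp1 -0.010 and Xrcc6 -0.018. The length and GC correction gave Atm 0.055, Trp53bp1 0.10 and Fancm 0.069. Mdm2 was -0.0098 with median centring and -0.014 with quantile normalization, Alkbh3 -0.048 with sample weights, and by REML Palb2 was 0.024, Alkbh3 -0.078 and Polb -0.0094. Leaving out 1 library gave Atm -0.085 to 0.041, Cdkn1a -0.011 to 0.23, Ercc8 -0.12 to 0.089, Fancm -0.12 to 0.071, Lig3 -0.13 to 0.031, Mdm2 -0.029 to 0.058, Mlh3 -0.10 to 0.011, Ogg1 -0.069 to 0.43, Rad21 -0.27 to 0.011, Rad52 -0.079 to 0.21, Trp53 -0.032 to 0.31, Trp53bp1 -0.14 to 0.081 and Xrcc6 -0.00058 to 0.14. The cause was not tested. The replicate numbers were not taken as pairs. With each gene's group mean subtracted, same-numbered libraries correlated at 0.038, 0.15 and 0.18 across genes. Libraries of different numbers were not compared in this way, so these values cannot decide whether the numbers mark pairs. With the replicate number as a block 1 gene passed and Mgmt kept 0.71 at an adjusted p of 0.936.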
